A study of Mus musculus with 4 samples.

Results

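Intermediate filaments are the rope-like part of the cytoskeleton, and in the developing cortex the filament proteins a cell makes depend on its type and stage. The genes described here are Vim (vimentin), Nes (nestin) and Gfap (glial fibrillary acidic protein), which are made by progenitors and glia, and Nefl, Nefm, Nefh (the light, medium and heavy neurofilament subunits) and Ina (alpha-internexin), which are made by neurons. They were chosen by symbol as a list of 7 filament genes, of 19938 genes that had a feature with a single symbol on the array. For each gene the feature with the highest mean over the 4 arrays was taken, and all 7 passed the filter on dim genes. Ina alone had a second feature.

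Dorsal cortices of E18.5 mouse embryos (days of gestation) were used without culture, and their RNA was measured on 4 single-colour whole-transcript arrays. The 2 mutant samples were Mek1fl/fl, Mek2-/- and carried NestinCre, so that Mek1 can be deleted by Cre recombinase in a background without Mek2. The 2 control samples were Mek1fl/wt, Mek2-/- with no NestinCre named in their labels. Absence of Mek2 is therefore shared by all 4 samples, although the series' design text calls the controls WT, and the presence of the transgene cannot be told apart from the deletion. Nestin-Cre transgenes are driven by regulatory sequence of the nestin gene and act in neural progenitors and the neurons and glia that descend from them. Vessels, meninges and microglia are outside that lineage. The question is what is altered in cortical gene expression shortly before birth when MEK1 is removed from neural cells that already lack MEK2. MEK1 and MEK2 are the kinases that activate ERK. Values are log2 expression, normalized by the authors with RMA. The labels do not name embryos or litters, so p-values measure only how far these samples differ among themselves, which may be technical in part. X- and Y-linked genes showed 1 female and 1 male sample in each group.

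Radial glia, the progenitors of the cortex, fill their long processes with vimentin and nestin. As they turn into astrocytes around birth, nestin is given up, vimentin declines and GFAP is added. Young neurons begin with alpha-internexin, and the neurofilament subunits are added as axons grow, the light and medium ones first and the heavy one last. Nestin cannot build a filament by itself and needs a partner such as vimentin. The medium and heavy subunits likewise need the light subunit or alpha-internexin.

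Vim and Nes were the only filament genes that lay lower on both mutant arrays than on both control arrays, and neither passed the test. Of all genes tested, 21.4% lay lower on both mutant arrays in this way. Nes was at 0.764 times its control level (95% interval 0.649 to 0.899) and Vim at 0.805 times (0.665 to 0.976). The 4 neuronal filament genes lay between 0.968 and 1.09 times their control level, and Gfap at 1.03 times. None of the 7 genes was called by limma at an adjusted p under 0.05, where 1.02% of the 13956 genes tested were called, 1.01% as lower in mutants and 0.0143% as higher. The adjusted p of the 7 genes ran from 0.186 to 0.948. An unadjusted p under 0.05 was found for 2 of the 7, Nes and Vim, where the background is 1872 of the 13956 genes tested.

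The sequence ahead of the start of Vim and of Nes is shown because these are the genes whose arrays did not overlap in the lower direction, and that of Ina is shown beside them as a neuronal filament gene whose arrays overlapped. Each run is the 250 bases before the RefSeq start on the strand of the gene, in build GRCm38.p6, and capitals mark matches to the motifs searched.
Vim, chr2:13574061-13574310, plus strand: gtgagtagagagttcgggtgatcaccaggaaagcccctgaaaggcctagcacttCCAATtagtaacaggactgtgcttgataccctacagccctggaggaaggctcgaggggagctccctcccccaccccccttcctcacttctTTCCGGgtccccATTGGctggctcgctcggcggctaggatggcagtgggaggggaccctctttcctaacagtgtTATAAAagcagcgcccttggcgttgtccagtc
Nes, chr3:87970843-87971092, plus strand: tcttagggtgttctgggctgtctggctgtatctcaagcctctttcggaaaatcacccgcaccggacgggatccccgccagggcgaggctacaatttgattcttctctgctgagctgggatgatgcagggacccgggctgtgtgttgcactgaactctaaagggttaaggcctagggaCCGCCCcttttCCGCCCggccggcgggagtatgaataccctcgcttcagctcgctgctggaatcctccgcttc
Ina, chr19:47014431-47014680, plus strand: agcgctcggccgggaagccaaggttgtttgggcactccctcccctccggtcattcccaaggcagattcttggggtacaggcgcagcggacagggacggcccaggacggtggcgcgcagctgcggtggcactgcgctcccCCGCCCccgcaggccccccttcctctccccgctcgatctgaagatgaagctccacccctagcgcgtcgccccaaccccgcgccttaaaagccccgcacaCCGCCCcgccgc

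Of the 5 motifs searched on both strands, TATAAA is the core of the TATA box, which positions the start of transcription. The sequence CCAAT is bound by the general factor NF-Y, and GGGCGG is the GC box bound by Sp factors. The core bound by ETS factors, some of which are phosphorylated by ERK, is CCGGAA, and that bound by AP-1 is TGANTCA. No matches overlapped. Vim holds TATAAA from 32 to 27 bases before the start, CCAAT once on each strand, and CCGGAA once on the other strand, from 106 to 101 bases before the start. Nes holds the GC box in 2 places and none of the other motifs, and Ina likewise holds the GC box in 2 places. Over the 32851 windows of the same length in the RefSeq table, 12.4% hold the TATA box, 33.8% the NF-Y motif, 32.7% the GC box and 6.75% the AP-1 motif, and the ETS core stands in 3952 of them. The window of Gfap, the 1 other member in the table, holds none of the 5 motifs. Guanine and cytosine make up 58.4% of the Vim window, 58.8% of the Nes window and 70.8% of the Ina window, against a median of 52.4%. The matches describe the letters of these windows and were not set against the expression values.

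Nes encodes nestin, the large filament protein of neural stem and progenitor cells. Its log2 level was 8.10 and 8.33 on the mutant arrays, against 8.65 and 8.56 on the control arrays. Both mutant arrays lay below both control arrays, and the closest pair across the groups was 0.23 apart, about the same as the gap of 0.23 between the mutants and wider than the 0.10 between the controls. The means were 8.22 ± 0.16 in mutants and 8.60 ± 0.07 in controls (SD, n = 2 each). The difference was -0.39 ± 0.09 (SE; 95% interval -0.62 to -0.15) and did not pass in limma (adjusted p = 0.186). Of all genes tested, 2.91% had a difference at or below that of Nes.

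Vim encodes vimentin, the filament protein of radial glia and immature astrocytes that is also made in vessels, meninges and microglia. Its log2 level was 11.61 and 11.92 in mutants, against 12.06 and 12.09 in controls. The mutant arrays were again both below the controls, but mutant 1 was the low one and mutant 2 stood only 0.14 below the nearer control. The 2 mutants were 0.31 apart, as large a gap as the difference between the groups, whereas the controls were 0.03 apart. The means were 11.77 ± 0.22 in mutants and 12.08 ± 0.02 in controls (SD, n = 2 each), and the difference of -0.31 ± 0.11 (SE; 95% interval -0.59 to -0.04) did not pass in limma (adjusted p = 0.319).

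Gfap encodes the filament protein that marks mature astrocytes and reactive glia. Its log2 level was 6.90 and 7.20 in mutants and 6.91 and 7.12 in controls, so the groups overlapped and each held 1 lower and 1 higher array. The difference was 0.04 ± 0.12 (SE; 95% interval -0.27 to 0.35; limma adjusted p = 0.941). The mean of the feature was 7.03, above the level of 6.16 under which genes were left out and near the array medians of 7.11 to 7.13. RMA can compress differences of dim features towards 0, and whether it did so for Gfap was not tested. The interval of Gfap stops short of the differences measured for Vim and Nes. It overlaps their intervals, -0.59 to -0.04 and -0.62 to -0.15, and whether Gfap differed from them was not tested.

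The neuronal filament genes were nearly level between the groups. Nefl, the light subunit that forms the core of neurofilaments, was at 9.37 and 9.40 in mutants and at 9.52 and 9.35 in controls. Nefm, the medium subunit, was at 9.04 on both mutant arrays and at 9.19 and 8.94 on the control arrays. For both genes the mutant arrays lay between the controls, and control 1 was the highest of the 4. The difference was -0.05 ± 0.07 for Nefl (SE; limma adjusted p = 0.856) and -0.03 ± 0.09 for Nefm (SE; limma adjusted p = 0.948). Nefl and Nefm are neighbours on chromosome 14, with 0 protein-coding genes between them in the RefSeq table, and their order of arrays was alike in that control 1 was highest and control 2 lowest.

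Ina encodes alpha-internexin, the first neuronal filament protein to appear. Its brighter feature was at 11.84 and 11.90 in mutants and at 11.71 and 11.85 in controls, and the groups overlapped through mutant 1. The difference was 0.09 ± 0.07 (SE; 95% interval -0.09 to 0.27; limma adjusted p = 0.654). The other feature of Ina, the one annotated with the RefSeq transcript, was at 11.51 and 11.62 in mutants and 11.50 and 11.52 in controls, a difference of 0.06 with the groups overlapping. The 2 features therefore gave differences of the same sign and similar size.

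Nefh encodes the heavy subunit, which comes late in development. It was at 7.42 and 7.32 in mutants, against 7.24 and 7.26 in controls, and was the 1 filament gene with both mutant arrays above both controls. The closest pair across the groups was 0.06 apart, less than the 0.10 between the mutants. The difference of 0.12 ± 0.06 (SE; 95% interval -0.03 to 0.28) did not pass in limma (adjusted p = 0.480). Levels of different genes are not set against each other here, since probes differ in brightness.

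**Figure D1:**
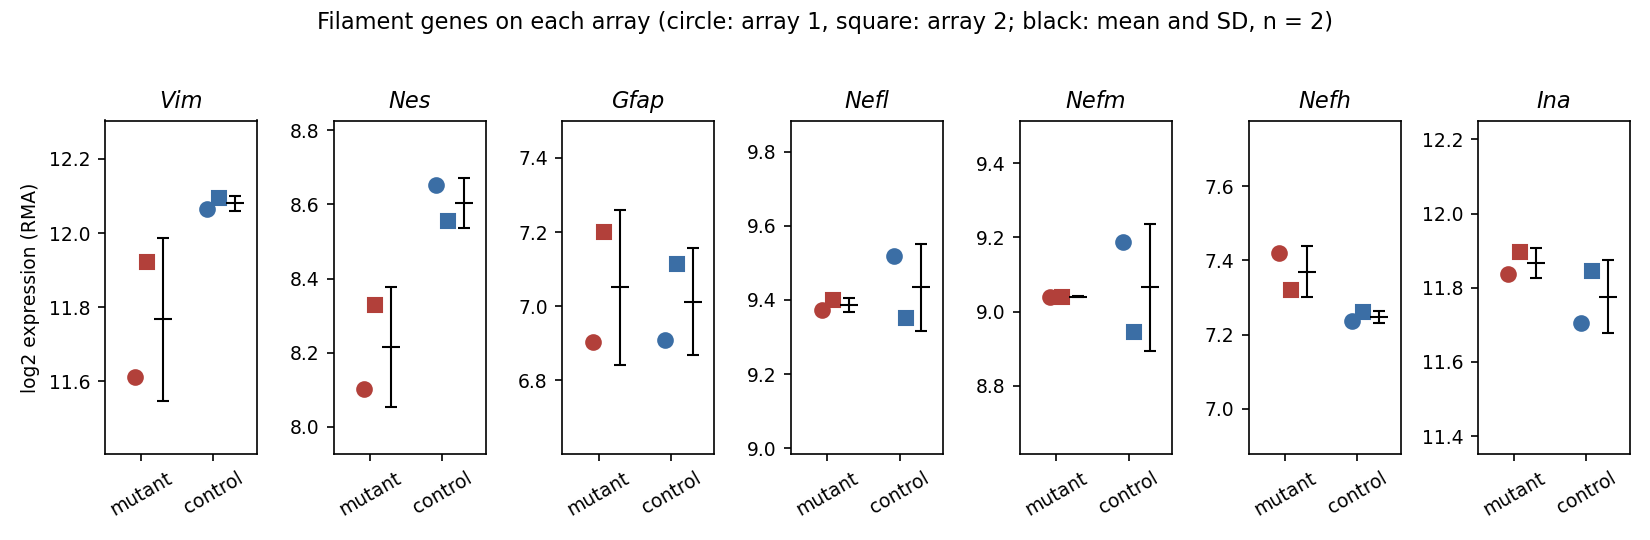
Log2 expression of the 7 filament genes on the 2 mutant arrays (left in each panel) and the 2 control arrays (right), each panel spanning 0.9 log2 units, with mean and SD beside the points. The mutant points lie below the controls for Vim and Nes, above them for Nefh, and overlap them for Gfap, Nefl, Nefm and Ina.

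Taking the 7 genes as a list, the arrays of the groups did not overlap for 3 of them, with mutants below for Vim and Nes and above for Nefh. Over all genes tested the groups did not overlap for 44.3%, with mutants below for 21.4% and above for 22.8%, so the share among the filament genes was near that of the whole array. The median difference was -0.03 over the 7 genes and 0.01 over all genes tested. Of all 13956 genes tested, 47.6% had a lower mean in mutants, 1872 had an unadjusted p under 0.05 and 1.01% were called as lower in mutants. These are the background for such counts in the lists below. Among the 3 progenitor and glial genes the median was -0.31, and among the 4 neuronal genes it was 0.03. The intervals of the neuronal genes reached no further than 0.28 from 0 in either direction on the log2 scale.

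**Figure D2:**
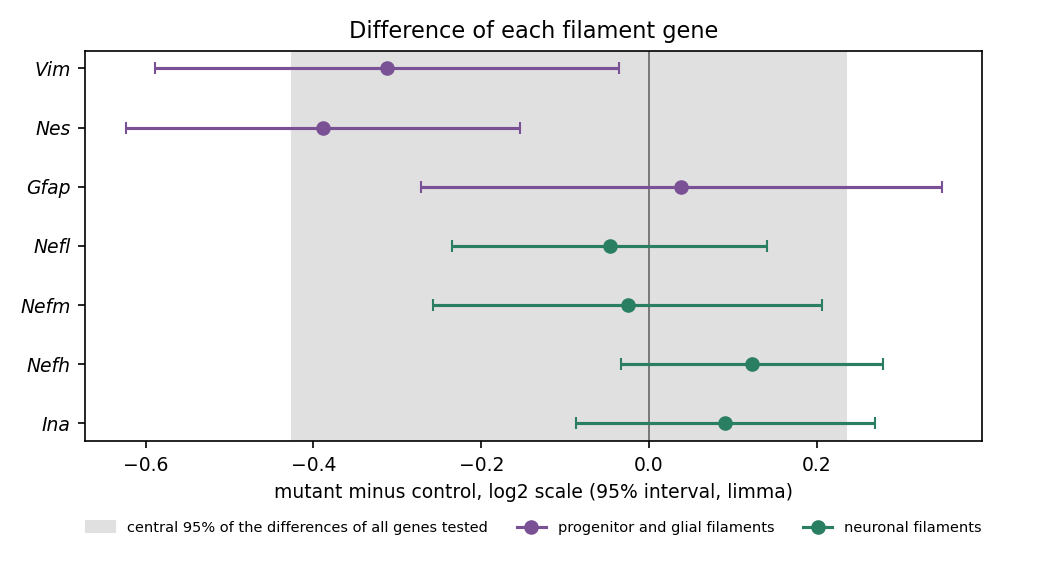
Mutant minus control difference (log2) of each filament gene and its 95% interval from limma; the grey band holds the central 95% of the differences of all genes tested, from -0.43 to 0.24. The intervals of Vim and Nes lie below 0 and those of the other 5 genes include 0, and the point of every filament gene lies inside the band.

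The contrast of the filament classes was taken within each array, as the mean log2 level of Nefl, Nefm, Nefh and Ina minus that of Vim, Nes and Gfap, set to an average of 0 over the controls. It was 0.40 on the mutant 1 array and 0.12 on the mutant 2 array, against 0.05 and -0.05 on the control arrays. Mutants therefore lay above controls, by 0.26 on average, but the 2 mutants differed by more than that. The neuronal mean was 0.04 and 0.03 in mutants and 0.03 and -0.03 in controls, so the contrast came from the progenitor and glial side, which was at -0.36 and -0.08 in mutants and -0.02 and 0.02 in controls. Without Gfap the contrast was 0.52 and 0.25 in mutants, against 0.01 and -0.01 in controls. No test was made of this contrast, because the genes in it were chosen with results known.

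Markers of the cells that make these filaments were read on the same arrays. Of 12 radial glia markers, which included Fabp7 and Ptprz1 as the brightest, all were tested, 5 fell, none rose and 7 did not pass, and the median difference was -0.48. Tnc, a matrix protein of radial glia, fell by 2.21 on the log2 scale, and Slc1a3, the glutamate transporter GLAST, fell by 1.53 (limma adjusted p = 0.0135 and 0.00538). Pax6, Sox2 and Prom1, the stem cell factors and surface protein of the ventricular zone, had differences of -0.22, -0.47 and -0.10 and did not pass. The differences of Nes and Vim lay within this range of the markers, which ran from -2.21 to -0.10, nearer to its weak end. All 12 markers, like Vim and Nes, had both mutant arrays below both controls, where the background is 21.4%. In such whole-tissue RNA, fewer cells of a type and less RNA per cell cannot be told apart.

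The astrocyte markers bright enough to test had larger differences than Vim or Nes. Of 10 markers, 7 were tested, 4 fell and none rose, with differences from -1.70 to -0.69. Aldoc, a glycolytic enzyme of astrocytes and the brightest marker, fell by 1.53 and Mlc1, a membrane protein of astrocyte endfeet and the next brightest, had a difference of -1.07 that did not pass (limma adjusted p = 0.0550). The markers S100b, Aqp4 and Gjb6 were under the filter on dim genes, with differences of -0.24, -0.89 and 0.08 and no test. Gfap passed the filter and had a difference of 0.04, outside the range of the 7 tested markers. Of the markers under the filter, Aqp4 and S100b had lower differences than Gfap and Gjb6 a higher one.

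Vim and Nes are also made by cells outside the neural lineage, and the markers of those cells were measured beside them. The 10 endothelial and pericyte markers, with Rgs5 and Cldn5 the brightest, had a median difference of 0.03; none passed in limma and 0 had an unadjusted p under 0.05. Their summed level, as 2 to the power of the log2 values, was 3285 and 3748 in mutants and 3515 and 3453 in controls. The 7 meningeal fibroblast markers, with Col1a1 and Dcn the brightest, summed to 846 and 949 in mutants and 937 and 903 in controls, and none of the 5 tested passed in limma or had an unadjusted p under 0.05. The 8 microglia markers, with Cx3cr1 and C1qb the brightest, summed to 966 and 999 in mutants and 1186 and 1157 in controls, and 1 of the 6 tested, Fcrls, fell. All 6 had a lower mean in mutants, where the background is 47.6%, with a median difference of -0.26. An unadjusted p under 0.05 was found for 4 of these 6, a larger share than the 1872 of all 13956 genes tested. For 5, both mutant arrays lay below both controls, where the background is 21.4%. No value on these arrays is 0, so the absence of a cell type cannot be read from them, and 2 microglia and 2 meningeal markers were under the filter on dim genes. The part of these cells in the levels of Vim and Nes was not tested.

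The gap between the mutant arrays ran through other lists as well. Set to an average of 0 over the controls, the mean level of the 12 radial glia markers was -0.83 on mutant 1 and -0.67 on mutant 2, and that of the 7 astrocyte markers was -1.32 and -0.95. Endothelial and pericyte markers stood at -0.07 and 0.11 and meningeal markers at -0.16 and 0.05. Mutant 1 was the lower array in each of these lists, as it was for Vim, Nes and Gfap. It was also lower for projection neuron markers (0.04 and 0.13), interneuron markers (-0.15 and 0.06) and microglia markers (-0.31 and -0.27). The same held for choroid plexus and dorsal cortex markers. Markers of other brain regions went the other way, at 0.13 and -0.02. The gap was thus also present in lists of neuronal markers, and its cause was not tested. Of the 4 filament-related lists described below, mutant 1 was lower for kinases (-0.25 and -0.20) and axonal cytoskeleton (0.08 and 0.11). It was higher for other filament genes (0.09 and 0.08) and for linkers and turnover (0.07 and 0.03). Oligodendrocyte precursor markers, with Olig1 and Pdgfra the brightest, were level between the mutants at -1.30 and -1.32, and 3 of the 6 fell.

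**Figure D3:**
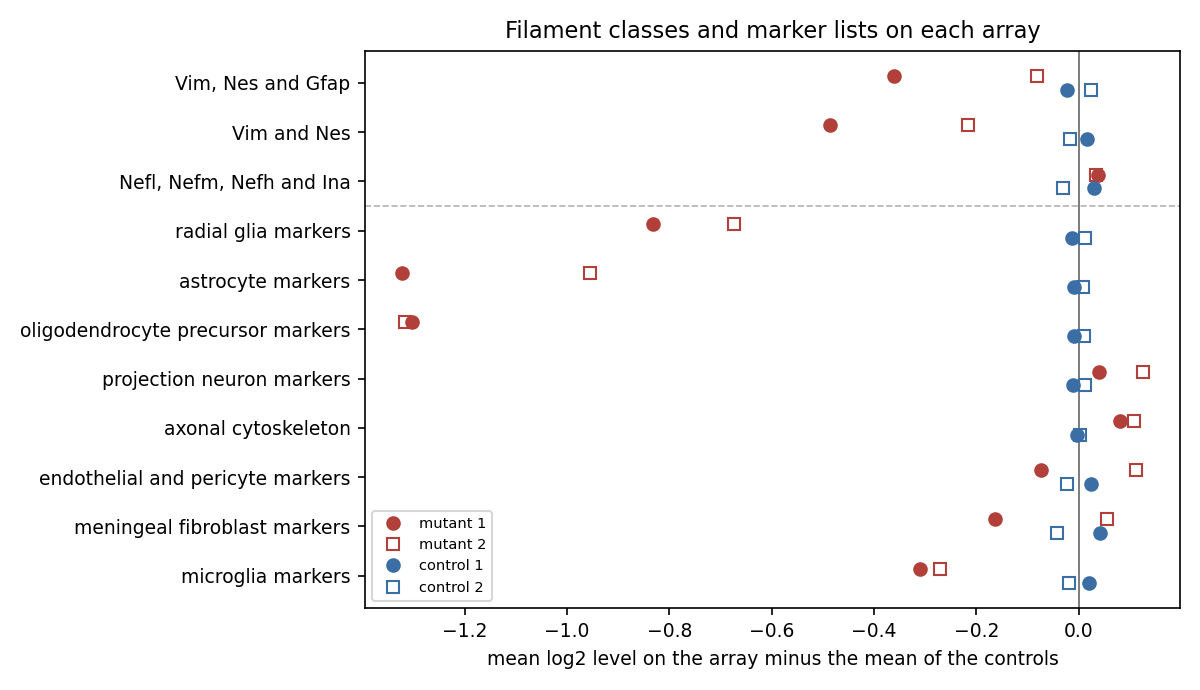
Mean log2 level of the filament classes (above the dashed line) and of marker lists (below it) on each array, relative to the mean of the controls. Vim and Nes lie at -0.49 on mutant 1 and -0.22 on mutant 2, the neuronal filaments lie within 0.04 of 0 on every array, and the radial glia, astrocyte and oligodendrocyte precursor markers lie further left on both mutant arrays.

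Neuronal markers were examined as the counterpart of the neurofilaments. Of 10 projection neuron markers tested, with Neurod6 and Syt1 the brightest, 9 had a higher mean in mutants, none passed in limma and 1 had an unadjusted p under 0.05, and the median difference was 0.10. The 6 interneuron markers, with Dlx1 and Gad1 the brightest, had a median difference of -0.07, and none passed in limma or had an unadjusted p under 0.05. The axonal cytoskeleton list holds the microtubule proteins and the motors that carry neurofilaments along the axon. All 20 of its genes had a higher mean in mutants, 17 of them with no overlap between the groups, where the background is 22.8%, but none passed in limma and the differences were small, from 0.02 to 0.19 with a median of 0.08. At an unadjusted p under 0.05 there was 1, Map6. Map6, a microtubule-stabilizing protein, differed by 0.17, Mapt, which encodes tau, by 0.17, and Tubb3, the neuronal beta-tubulin, by 0.17 (limma adjusted p between 0.366 and 0.382). Kif5a, the motor linked to neurofilament transport and named here after its value was seen, differed by 0.05. Nefl and Nefm were the neuronal filament genes whose mean was not higher in mutants, at -0.05 and -0.03. The genes of this list are bright and were normalized together, and a shift shared by bright features was not tested for.

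Among the other filament genes, none passed in limma and 2 had an unadjusted p under 0.05. Of 14 on the list, 10 were tested, 4 with a lower and 6 with a higher mean in mutants, and the median difference was 0.09. The smallest p belonged to Bfsp1, a filament protein known from the lens (difference 0.31, limma adjusted p = 0.190), Lmna, the nuclear lamin A/C (0.24, limma adjusted p = 0.259), and Sync, the desmin partner syncoilin (-0.13, limma adjusted p = 0.430). Groups did not overlap for 7 of the 10, where the background is 44.3%, with mutants above for 6, where it is 22.8%. Synm, encoding synemin, a partner of vimentin in glia, and Prph, encoding peripherin of peripheral neurons, were both chosen after their values were seen and differed by 0.08 and 0.15. The muscle filament gene Des and the keratin genes Krt18 and Krt19 were under the filter on dim genes, as was the lens gene Bfsp2.

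Proteins that link filaments to the rest of the cell, protect them or break them down did not pass in limma either, and 2 had an unadjusted p under 0.05. Of 12 such genes tested, 3 had a lower and 9 a higher mean in mutants, and the median difference was 0.06. Casp6, a protease that can cut filament proteins, differed by -0.20 (limma adjusted p = 0.236), Cryab, a chaperone that binds GFAP and desmin filaments, by 0.25 (limma adjusted p = 0.292), and Capn1, a calcium-activated protease, by 0.17 (limma adjusted p = 0.414).

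Kinases that phosphorylate filament proteins were the 1 filament-related list with genes that passed. Of 8 tested, 2 fell, none rose and 6 did not pass, where 1.01% of all genes tested were called as lower in mutants. The median difference was -0.06. Plk1 and Aurkb, mitotic kinases that phosphorylate vimentin when cells divide, fell by 0.57 and 0.61 on the log2 scale (limma adjusted p = 0.0278 and 0.0427). Plk1 was at 7.81 and 7.75 in mutants and at 8.38 and 8.31 in controls. Aurkb was at 7.43 and 7.35 in mutants, against 7.92 and 8.08 in controls. Cdk1, the main mitotic kinase, was at 7.50 and 7.86 in mutants and at 8.41 and 8.31 in controls, and its difference of -0.68 did not pass (limma adjusted p = 0.103). These 3 are general genes of dividing cells, and the calls of Plk1 and Aurkb were lost without control 1, without control 2 and with all dim genes kept. Those fits called 9, 9 and 15 genes on the whole array, against 143 in the fit as reported, while the differences of both kinases stayed between -0.69 and -0.53. Both calls were also lost when every feature was tested and with embryo sex as a covariate, and that of Aurkb with the replicate number as a block. Cdk5, the neuronal kinase that phosphorylates neurofilament tails, and its activator Cdk5r1 were chosen after their values were seen, and differed by -0.08 and 0.12.

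**Figure D4:**
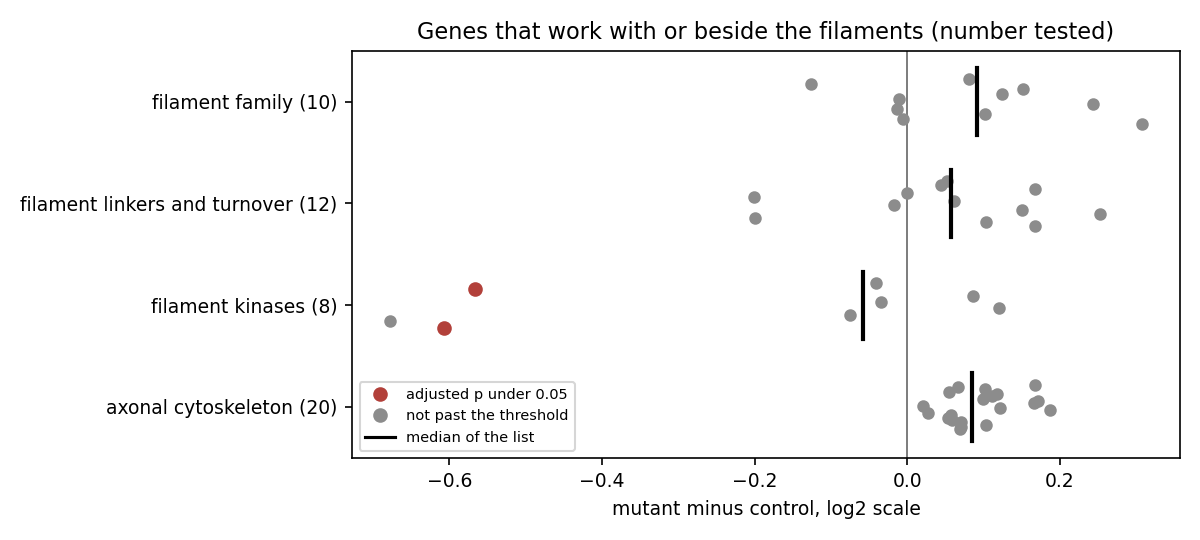
Differences, mutant minus control on the log2 scale, of the genes tested in the lists of other filament genes, filament linkers and turnover, filament kinases and axonal cytoskeleton; black bars are medians and red points have an adjusted p under 0.05. Plk1 and Aurkb are the red points, Cdk1 is the grey point beside them, and all 20 axonal genes lie right of 0.

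Nes was the 1 filament gene whose levels spanned at least 0.5 over the arrays, and the genes whose pattern was most like it were found by the root mean square distance between log2 values centred on each gene's mean over the 4 arrays. The nearest were Mtmr10, at a distance of 0.015 and a difference of -0.37, Eepd1, at 0.020 and -0.38, and Wwtr1, which encodes the transcriptional co-activator TAZ, at 0.022 and -0.37. Wwtr1 was at 8.01 and 8.24 in mutants, against 8.52 and 8.48 in controls. None of the 3 passed in limma (adjusted p between 0.148 and 0.226), and over 4 arrays such likeness is a description only.

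Regional markers were read as a rough check of the dissection only, since probes differ in brightness. The dorsal cortex genes Neurod6, Tbr1, Lhx2 and Emx1 had means between 8.72 and 12.08 in both groups, and Emx2 was at 6.70 and 7.56 in mutants and 7.80 and 7.86 in controls. Of 7 markers of other brain regions, En1, En2, Hoxb4 and Hoxc8 were under the filter on dim genes, and Gbx2, Nkx2-1 and Pax2 were at most at 6.69. The check of the targeted gene, Map2k1, gave 8.50 and 8.73 in mutants and 8.76 and 8.84 in controls, a difference of -0.19 that did not pass (limma adjusted p = 0.469). Where its probes lie relative to the floxed exon is not known here, so the value does not check the deletion.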

How the data were processed

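The deposited table holds log2 expression values of 35557 features on 4 arrays, and per the submitters' processing notes the authors used RMA. RMA corrects background, quantile-normalizes and summarises probes, which hides any shift common to most transcripts. Its version and the genome build were not given in the sources used here. From the values' range, the log base was taken as base 2. No scanner intensities or detection calls were used, and array medians were 7.11 to 7.13. The number of arrays limits the precision.

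Of the features, 21789 had 1 gene symbol in the platform annotation, 1621 several, and 12147 were not listed. Symbols were updated by Entrez identifier in the RefSeq table (21698 matched). The brightest feature per gene was kept, and genes under the 30th percentile (log2 6.16) were left out, leaving 13956. The test was limma 3.58.1 under R 4.3.3 (lmFit and eBayes; 2 residual and 3.31 prior degrees of freedom), with Benjamini-Hochberg adjustment over all genes tested. The fit was tested on simulated data. Differences are mutant minus control.

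The members and lists were chosen with earlier results of these data known. Named from each of 4 lists were called genes, then the smallest p up to 3; of marker lists, the brightest 2; others were named after their values were seen. Alternatives were other filters, priors, scalings and feature choices, covariates, and leaving out each array. The deviations of arrays with the same replicate number had a correlation of -0.16 over all genes tested. These include sex-linked genes, and arrays with the same number were of opposite sex. The value therefore does not decide whether replicate numbers pair the arrays.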

Additional observations from a re-analysis of the deposited data

How the results depend on the processing

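None of the 7 filament genes was called in limma in the fit as reported, and none in 13 of the 14 other fits. Without mutant 2, Vim and Nes both passed, at differences of -0.47 (adjusted p = 0.0139) and -0.50 (adjusted p = 0.0145). Over the fits that left out 1 array, between 0 and 2 of the filament genes were called. That fit called 881 genes in all, against 143 in the fit as reported, and takes the spread within groups from the controls alone. The number of named genes called in all was 262 without mutant 1, 9 without control 1, 9 without control 2, 15 when dim genes were kept and 0 when every feature was tested, so each marker given as having fallen was not called in the last of these. Without mutant 1 the differences were -0.16 for Vim and -0.27 for Nes. The difference of Vim and of Nes stayed below 0 in every fit run, and those of Nefh and Ina above 0. Much of this was fixed in advance, since changes of filter, prior or covariate cannot alter these differences. For Vim, Nes and Nefh the groups did not overlap, so leaving out 1 array cannot reverse the sign either. Gfap changed sign without mutant 2 (-0.11) and without control 1 (-0.06), and Nefl (0.04) and Nefm (0.10) changed sign without control 1. Adjusted p ran from 0.0139 to 0.824 for Vim and from 0.0145 to 0.679 for Nes. Under the stricter filter, Gfap and Nefh were left out as dim.

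The number of filament kinases called was 2 as reported, 0 when dim genes were kept, 0 when every feature was tested, and between 0 and 3 over the fits that left out 1 array. With the replicate number as a replicate block it was 1, with 116 genes called in all, and the block changed no other call for the filament genes and the 4 lists. With crossed replicate numbers, which equal embryo sex here, 0 kinases and 17 genes in all were called. The other filament genes, the linkers and the axonal list had 0 calls in every fit, and the axonal genes with a higher mean in mutants numbered 18 to 20 over the scalings and the arrays left out. The contrast of neuronal with progenitor and glial filaments was 0.12 without mutant 1 and 0.40 without mutant 2, 0.31 without control 1, 0.20 without control 2, 0.39 without Gfap, 0.23 without Nefh, and 0.25 to 0.26 under the other scalings and the mean of features. The cause of these differences was not tested.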

Other observations

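A few genes outside the filament lists stood apart on a single array, and were chosen after their values were seen. Ttr, the transthyretin gene that marks choroid plexus, was at 6.50 and 7.17 in mutants and at 6.67 and 9.15 in controls, so control 2 was the high array. Dcn, the decorin gene of fibroblasts, was at 6.70 and 7.84 in mutants and at 7.84 and 7.81 in controls, so mutant 1 was the low one. Gja1, a gap junction protein of astrocytes and radial glia, was at 8.29 and 9.30 in mutants and at 9.57 and 9.59 in controls, and Slc1a2, the glutamate transporter GLT-1, was at 7.66 and 8.57 in mutants and at 8.87 on both control arrays. Neither passed in limma (adjusted p = 0.382 and 0.352), and in both, as in Vim, mutant 2 was the mutant array nearer to the controls.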
